A study of Mus musculus with 14 samples.

Results

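Activity-induced immediate early genes are the genes that neurons switch on first after stimulation, and they were followed here in the cortex of mice lacking 1 copy of Dnmt3a, which encodes a DNA methyltransferase. The members were chosen by name, as the rows of the deposited count table whose symbol is on a list of 35 names. Of these names, 34 had a row among the 34193 rows of the table, and 33 passed the filter on low counts, out of 13815 genes tested. Per1l had no row. Atf3, a stress-responsive transcription factor, had between 2 and 14 reads per animal, 103 in total, and was not tested. Both genotypes were C57BL/6J mice of 8 weeks: 7 heterozygous knockout animals and 7 wild type littermates, each with 4 females and 3 males. How the Dnmt3a knockout allele was made was not analysed here. Titles begin with 1 of 6 numbers (046, 047, 048, 119, 139 and 141), called the title prefix below. Each prefix held both genotypes and animals of 1 sex: 046, 048 and 119 were male, and 047, 139 and 141 were female. Prefix 141 had 4 animals and every other prefix had 2. Its meaning is not stated in the labels.

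In a neuron, calcium entry through synaptic receptors and voltage-gated channels activates kinases that phosphorylate transcription factors already bound to DNA, such as CREB and the serum response factor with its partners. These switch on the immediate early genes without new protein synthesis. The first wave holds DNA-binding factors (the Fos, Jun, Egr and Nr4a families and Npas4) and effectors that act at synapses or are secreted (Arc, Nptx2, Vgf, Nrn1). It also holds feedback and signalling regulators, called feedback regulators below. Among these are MAP kinase phosphatases of the Dusp family, which dampen the signalling, and Ier2, Ier5 and Btg2. In this tissue immediate early genes are widely used as a record of recent neuronal activity.

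Promoter windows from RefSeq (build GRCm38.p6), running from 250 bases before to 50 bases after each gene start, were found for 24 of the 35 names. Both strands were searched for the cAMP response element, TGACGTCA, bound by CREB, for the serum response element, and for the Egr site GCGNGGGCG. The cAMP response element was in the window of 3 of the 24 members, against 2.03% of all genes with a window. The serum response element was in 2 of 24, against 1.81%, and the Egr site was in 7 of 24, against 6.27%. No match of one motif overlapped a match of another, and a match describes the letters only. One stretch is shown for each of the 5 members with the first or the second element, because these elements are the textbook entry points of the pathway. For Egr2 the stretch comes from its most upstream window, and windows at other Egr2 starts hold a different serum response element, which is not shown. They read 5′ to 3′ on the gene's strand, with the element in capitals.
Btg2, chr1:134079274-134079361, minus strand: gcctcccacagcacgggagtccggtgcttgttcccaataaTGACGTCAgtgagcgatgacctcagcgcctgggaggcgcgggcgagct
Dusp1, chr17:26508568-26508655, minus strand: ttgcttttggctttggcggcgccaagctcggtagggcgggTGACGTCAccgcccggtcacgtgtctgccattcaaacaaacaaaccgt
Plk2, chr13:110394942-110395029, plus strand: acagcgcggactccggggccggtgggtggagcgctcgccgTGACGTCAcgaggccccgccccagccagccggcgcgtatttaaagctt
Egr2, chr10:67537454-67537543, plus strand: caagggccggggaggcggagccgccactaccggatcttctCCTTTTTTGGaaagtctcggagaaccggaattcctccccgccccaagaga
Dusp5, chr19:53529023-53529122, plus strand: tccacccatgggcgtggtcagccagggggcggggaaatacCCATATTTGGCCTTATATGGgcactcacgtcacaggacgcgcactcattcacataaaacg
The Dusp5 stretch holds 2 serum response elements side by side, and each of the other stretches holds 1 of its element.

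Total counts ranged from 8951835 to 14335406 per animal, and the members together took 0.190% to 0.364% of them. Dnmt3a, the targeted gene, had 146 ± 14.2 CPM (counts scaled to library size, SD, n = 7) in wild type and 99.0 ± 11.4 CPM (SD, n = 7) in heterozygous animals, a log2 fold change of -0.57 (SE 0.0752, adjusted p = 0.00774, edgeR). Markers of cortical excitatory neurons summed to between 5110 and 6954 CPM in every animal, and choroid plexus markers to at most 4.80 CPM. The 6 animals of prefixes 119 and 141 stood apart from the other 8 in features that do not involve the members. Mitochondrial transcripts took 1.11% to 1.99% of their counts against 0.571% to 0.860% in the others. Of 7 astrocyte markers, 7 were higher in those animals, with a summed level of 1774 to 2615 CPM against 1441 to 1787 CPM, and 6 of 6 microglial and 5 of 6 endothelial markers were higher too. Of the neuronal lists, 1 of 5 excitatory neuron markers and 2 of 5 interneuron markers were higher in those animals. The interneuron markers summed to 471 to 611 CPM in them against 587 to 684 CPM in the others, and the excitatory markers to 5300 to 6954 CPM against 5110 to 5460 CPM. The prefix test, the genotype test with and without the prefix block and the test of genotype by sex are given below with and without these animals. In bulk tissue, fewer cells of a type and less RNA per cell cannot be told apart.

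Levels between genes can be compared only per length, so CPM was divided by exon length in kilobases. In wild type animals Arc, whose protein regulates AMPA receptor traffic at synapses, stood highest at 124 ± 43.4 CPM per kb (SD, n = 7). Jund, a constitutive Jun family factor, followed at 108 ± 16.3, then the neuropeptide precursor Vgf at 84.8 ± 26.8, Egr1 at 77.1 ± 25.1 and the growth-promoting surface protein Nrn1 at 73.4 ± 5.46 CPM per kb (each SD, n = 7). These neighbours differed by less than their spread. At the other end stood Dusp5, a nuclear phosphatase of ERK, at 2.53 ± 1.09, and Inhba, a subunit of activin, at 0.857 ± 0.154 CPM per kb (SD, n = 7). The lowest and highest per-length levels of these last 2 genes did not overlap in wild type animals, since Inhba reached 1.07 and Dusp5 started at 1.39 CPM per kb.

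The members differed between title prefixes, with the widest spans among the DNA-binding factors. A test of the prefixes within sex, with genotype as a term, was passed by 25 of the 33 members (edgeR quasi-likelihood F test, adjusted p under 0.05), against 32.2% of all genes tested. By role these were 10 of 14 DNA-binding factors, 10 of 12 feedback regulators and 5 of 7 effectors. The difference in log2 CPM between the highest and the lowest prefix had a median of 1.51 over the factors, 1.00 over the feedback regulators and 0.61 over the effectors, against 0.39 over all genes. The members that missed the threshold were Fosl2, Jun, Nr4a1, Nr4a2, Sik1, Rgs2, Inhba and Nrn1. Prefix 119 was the lowest of the 6 for 21 of the 33 members and prefix 141 for 8, while prefix 047 was the highest for 17. DESeq2 placed 27 members past the same threshold, against 27.1% of all genes.

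**Figure D1:**
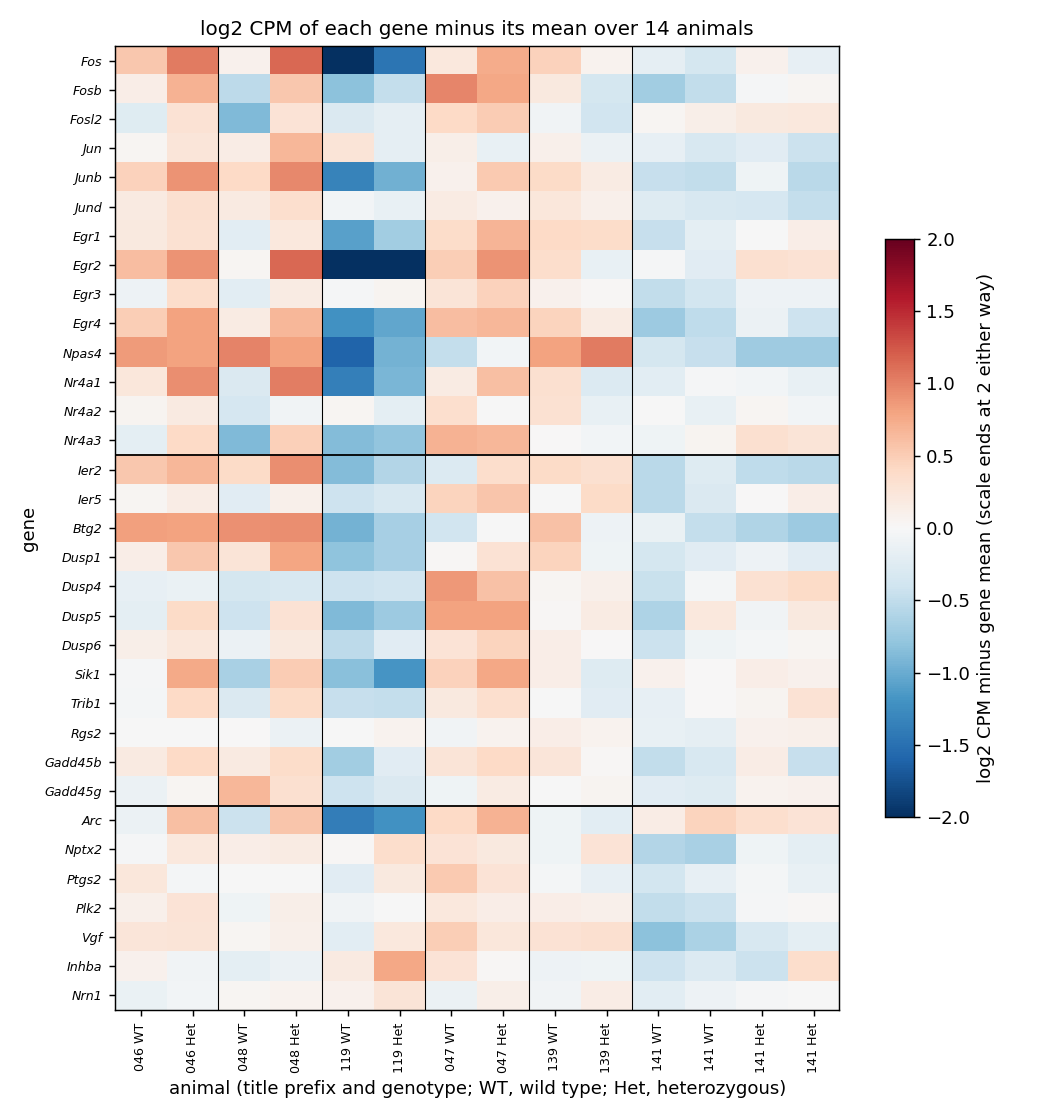
Level of each member in each of the 14 animals, as log2 CPM minus the member's mean over all animals, with animals ordered by title prefix and members by role. The 2 animals of prefix 119 are lowest for many DNA-binding factors and feedback regulators, while Rgs2 and Nrn1 vary little.

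Among the DNA-binding factors, Npas4 and Egr1 had the smallest p-values of the prefix test. Npas4, a factor found in neurons that responds selectively to calcium entry, had 7.17 and 11.4 CPM in prefix 119 and 13.4 to 17.3 CPM in prefix 141. In prefix 047 it had 15.8 and 21.3 CPM, and in the 6 animals of prefixes 046, 048 and 139 it had 38.6 to 45.7 CPM (adjusted p = 1.27e-07, edgeR). The prefixes thus fell into a low set that included 047 and a high set, with no overlap. Egr1, a zinc finger factor used as a marker of activity in cortex, had 171 and 224 CPM in prefix 119, 262 to 397 CPM in prefix 141, and 311 to 578 CPM in the other 8 animals (adjusted p = 6.37e-07, edgeR). The Egr1 levels of prefix 141 overlapped those of the other animals, and those of prefix 119 lay below every other animal.

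Fos, the founding member of the AP-1 factors, had 8.37 and 14.4 CPM in prefix 119, 31.3 to 42.3 CPM in prefix 141 and 42.0 to 88.4 CPM in the other 8 animals (adjusted p = 0.00156, edgeR). Junb, a partner of Fos in AP-1, had 31.1 and 40.4 CPM in prefix 119, 54.3 to 74.0 CPM in prefix 141 and 83.1 to 153 CPM elsewhere (adjusted p = 8.43e-06, edgeR). Junb, Jund, Egr4 and the phosphatase gene Dusp1 were the 4 of 33 members for which all 6 animals of prefixes 119 and 141 lay below all others, against 6.16% of all genes. Egr2, chosen after its values were seen, was down to 3.06 and 3.45 CPM in prefix 119 and had 14.5 to 37.7 CPM in every other animal.

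**Figure D2:**
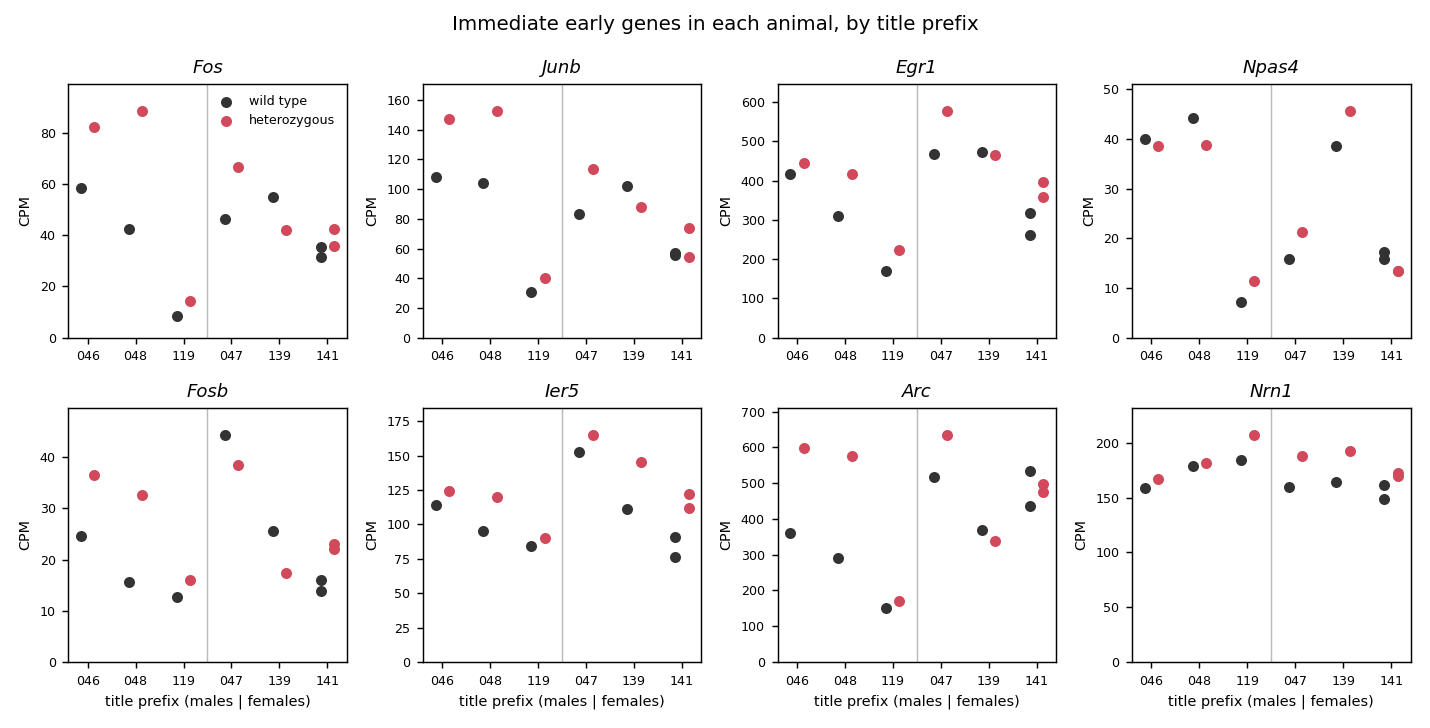
CPM (linear axes from 0) of Fos, Junb, Egr1, Npas4, Fosb, Ier5, Arc and Nrn1, with a point for each animal, by title prefix and genotype. Fos, Egr1 and Junb are lowest in prefix 119, and Npas4 is low in prefixes 047, 119 and 141.

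Feedback regulators followed a similar order with a smaller range. Ier2, a small nuclear protein induced by growth factors, had 6.95 and 8.51 CPM in prefix 119, 8.78 to 10.7 CPM in prefix 141 and 10.6 to 24.6 CPM in the other prefixes (adjusted p = 3.66e-06, edgeR). Ier5, a relative of Ier2, had 84.0 and 89.7 CPM in prefix 119, 76.4 to 122 CPM in prefix 141, and 153 and 165 CPM in prefix 047 (adjusted p = 3.01e-05, edgeR). The 6 animals of prefixes 046, 048 and 139 had 95.1 to 145 CPM, so both prefix 047 animals stood above all the others. Dusp1, which inactivates MAP kinases and carries a cAMP response element in the stretch shown above, had 25.5 and 28.1 CPM in prefix 119, 35.2 to 41.7 CPM in prefix 141 and 42.3 to 77.5 CPM elsewhere (adjusted p = 0.000596, edgeR). Dusp6, a phosphatase specific for ERK, had 68.4 and 83.8 CPM in prefix 119 and 72.4 to 134 CPM in the other animals (adjusted p = 0.000154, edgeR). Its ranges overlapped between the sets of prefixes.

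The effectors did not share 1 order. Arc had 151 and 169 CPM in prefix 119 and 292 to 634 CPM in every other animal, and prefix 141, at 436 to 533 CPM, lay inside the range of the rest (adjusted p = 0.0088, edgeR). Nptx2, a secreted pentraxin that clusters AMPA receptors, had another order. Prefix 119 had 64.0 and 80.0 CPM, within the 59.2 to 75.8 CPM of the other prefixes at its lower value and above them at its higher one. Prefix 141 had 39.8 to 59.2 CPM (adjusted p = 0.000365, edgeR). Vgf was likewise lowest in prefix 141, at 144 to 224 CPM, against 220 and 294 CPM in prefix 119 and 262 to 358 CPM in the others (adjusted p = 0.000367, edgeR). Thus the low prefix was 119 for Arc and 141 for Nptx2 and Vgf.

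The pair of prefixes 119 and 141 was set against the rest only as a description, because the pairing came from an earlier view of these data. The median log2 difference, with sex and genotype as terms, was -0.79 over the 14 factors, -0.53 over the 12 feedback regulators and -0.28 over the 7 effectors. Each prefix was also set against the other prefixes of its own sex. Prefix 119 was below the other male prefixes for 14 of 14 factors, 11 of 12 feedback regulators and 4 of 7 effectors, against 50.1% of all genes. Prefix 141 was below the other female prefixes for 13, 12 and 6 of them, against 49.8% of all genes. The largest differences in prefix 119 were those of Egr2 and then of Fos, the latter at -2.55 in log2 CPM. The part that the mitochondrial share and the glial and neuronal markers have in these differences was not tested.

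Without prefixes 119 and 141, a comparison chosen after seeing the data, 1 of the 33 members passed the prefix test in the remaining 8 animals, against 0.238% of all genes. It was Npas4 (adjusted p = 0.000553, edgeR). Between the female prefixes 047 and 139, Npas4 was lower in 047 by a log2 difference of -1.19, and Btg2, an antiproliferative regulator, and Ier2 differed the same way by -0.44 and -0.32. Other members differed in the opposite direction: Fosb by 0.96, the phosphatase gene Dusp5 by 0.71, the nuclear receptor gene Nr4a3 by 0.71 and Arc by 0.70, all chosen after their values were seen.

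The central comparison of the series asks what loss of 1 Dnmt3a copy does to expression in cortex. No member passed the threshold for genotype with sex as a term: 0 of 33, against 0.0145% of all genes, or 0.00724% for genes higher in heterozygous animals (edgeR). The 0.0145% was 2 genes. At an unadjusted p under 0.05 there was 1 member, Nrn1, beside 552 genes in all, and DESeq2 placed 0 members and 11 genes past the threshold. The estimates nevertheless lay mostly above 0. Of the 33 members, 28 were higher in heterozygous animals, against 50.9% of all genes, with a median log2 fold change of 0.18 against 0.0024 over all genes. By role, 11 of 14 factors (median 0.26), 11 of 12 feedback regulators (median 0.17) and 6 of 7 effectors (median 0.15) lay above 0. Without prefixes 119 and 141, 26 of 33 members lay above 0, against 50.2% of all genes. In that fit 0 members and 0 genes passed, so the targeted gene Dnmt3a did not pass either. The members above 0 were 13 factors, 9 feedback regulators and 4 effectors. The medians were then 0.23, 0.15 and 0.067, so that of the effectors rested in part on those animals. Members share libraries and prefixes, so these counts are not independent observations and are given with no test. Beside them, 4 of 5 excitatory neuron and 5 of 5 interneuron markers lay above 0, against 0 of 7 astrocyte and 0 of 6 microglial markers, and the summed astrocyte level had a median of 1787 CPM in the wild type group, where it reached 2615, and of 1578 CPM (range 1441 to 2029) in the heterozygous group. The part of these markers in the result was not tested. The genotype ranges overlapped for all 33 members, as they did for all but 0.123% of genes.

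Fos had a lowest, median and highest level of 8.37, 42.5 and 58.3 CPM in wild type and of 14.4, 42.3 and 88.4 CPM in heterozygous animals. The medians were nearly equal, and the log2 fold change of 0.41 had an SE of 0.402 (adjusted p = 0.978, edgeR). Its 95% interval ran from -0.45 to 1.27. Arc had 151, 368 and 533 CPM in wild type and 169, 497 and 634 CPM in heterozygous animals, with a log2 fold change of 0.36 (SE 0.273, adjusted p = 0.978, edgeR). Between the highest and the lowest prefix, log2 CPM differed by 2.64 for Fos and by 1.84 for Arc. A range over 6 prefixes and a difference between the genotype means are unlike measures, so their sizes are not weighed against each other.

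The factors with the smallest genotype p-values were Egr3, Nr4a3 and Fosl2. Egr3, a zinc finger factor induced after Egr1, had 55.8, 73.0 and 93.4 CPM in wild type and 72.8, 81.6 and 107 CPM in heterozygous animals, a log2 fold change of 0.23 (SE 0.113, adjusted p = 0.978, edgeR). For Nr4a3, an orphan nuclear receptor, it was 0.37 (SE 0.200), and for Fosl2, an AP-1 factor, 0.27 (SE 0.144), both at an adjusted p of 0.978 (edgeR). In all of them the ranges of the genotypes overlapped, with the heterozygous median the higher one.

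Of the feedback regulators, Ier5 had 76.4, 95.1 and 153 CPM in wild type and 89.7, 122 and 165 CPM in heterozygous animals (log2 fold change 0.27, SE 0.134, adjusted p = 0.978, edgeR). Trib1, a pseudokinase that directs protein degradation, and Dusp6 had log2 fold changes of 0.24 (SE 0.130) and 0.18 (SE 0.119) at the same adjusted p. Of the effectors, Nrn1 had 149, 162 and 184 CPM in wild type and 167, 182 and 207 CPM in heterozygous animals, a small difference with the narrowest spread of those named (log2 fold change 0.15, SE 0.0623, unadjusted p = 0.0303, adjusted p = 0.978, edgeR). Nptx2 and Plk2, a kinase of synaptic scaling, had log2 fold changes of 0.24 (SE 0.119) and 0.16 (SE 0.0980).

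Of the 33 members, 5 had estimates on the other side of 0. These were Btg2 at -0.15 (SE 0.307), Nr4a2 at -0.08 (SE 0.0920), Jun at -0.04 (SE 0.112), Jund at -0.03 (SE 0.116) and Ptgs2, the inducible cyclooxygenase, at -0.01 (SE 0.123). None lay farther from 0 than its SE, and the sign of Jun, Jund, Btg2 and Ptgs2 turned when single animals were left out.

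**Figure D3:**
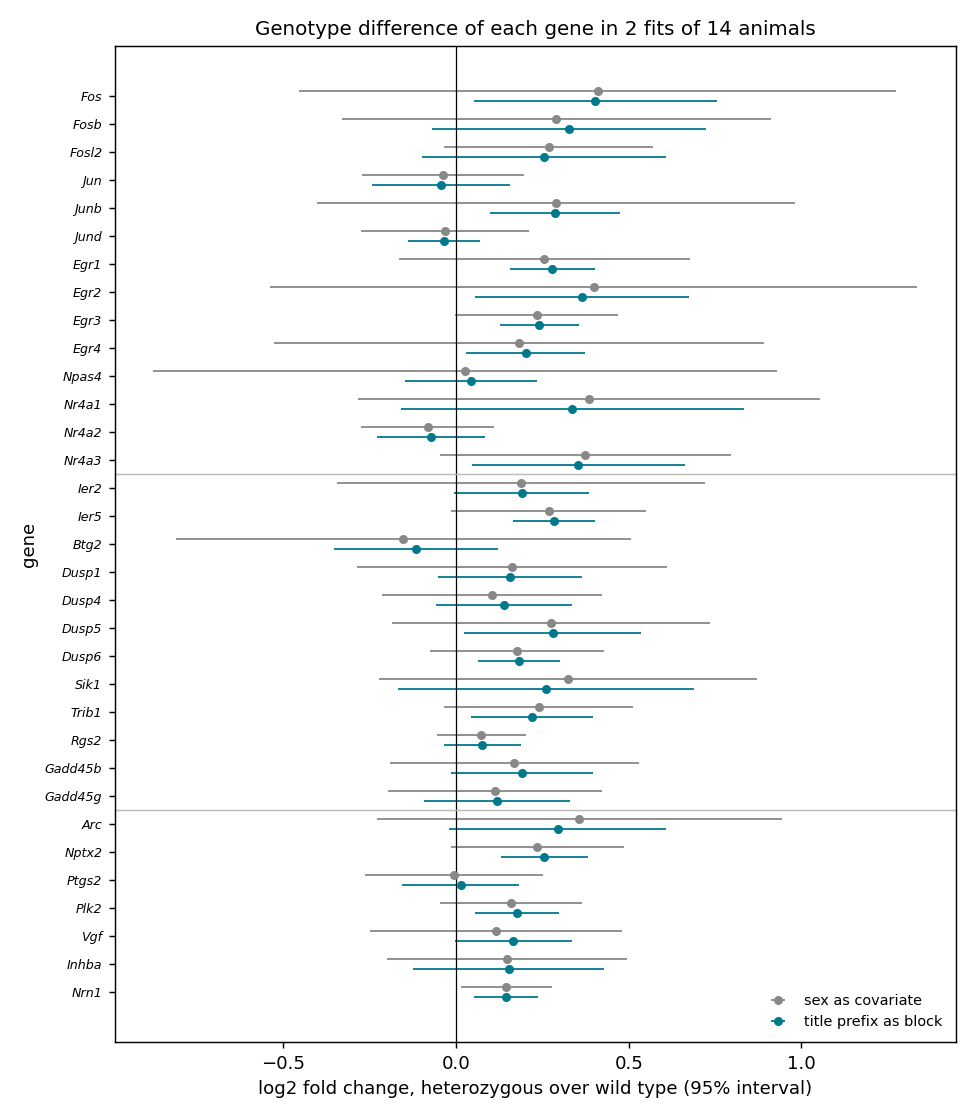
Log2 fold change of each tested member, heterozygous over wild type, with its 95% interval, from the fit with sex as a term and from the fit with the title prefix as a block. Most intervals narrow with the prefix as a block. Intervals are not adjusted for the number of genes, so 14 of 33 lie above 0 with the block while 2, of Egr1 and Ier5, belong to members that passed after adjustment.

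With the title prefix as a block, which compares the genotypes within each prefix, 2 of the 33 members passed the threshold, both higher in heterozygous animals, against 0.405% of all genes and 0.261% in that direction. The log2 fold change was 0.28 for Egr1 (SE 0.0596, adjusted p = 0.0414) and 0.28 for Ier5 (SE 0.0577, adjusted p = 0.0272, edgeR). At an unadjusted p under 0.05 there were 14 members in this fit, beside 1782 genes in all. Egr1 was higher in heterozygous animals in 5 of 6 prefixes and Ier5 in 6 of 6. When each animal was left out in turn, Egr1 passed in 4 of 14 fits (adjusted p from 0.00825 to 0.151) and Ier5 in 7 of 14 (adjusted p from 0.0183 to 0.0727). In a prefix of 2 animals, leaving out either one removes the same genotype comparison. Those fits come in nearly equal pairs, so the 14 are not separate checks. The Egr1 call held when the animal left out was of prefix 046 or 139, and was lost without any animal of prefixes 047, 048, 119 or 141. The Ier5 call was lost without either animal of prefix 048, the wild type animal of prefix 119 or any animal of prefix 141. In prefix 119 its adjusted p was 0.0507 without the wild type animal and 0.0488 without the heterozygous one (edgeR), on either side of the threshold. Without the 6 animals of prefixes 119 and 141, neither call held (0 members, against 0.0144% of all genes): Ier5 had 0.23 (SE 0.0607, adjusted p = 0.332) and Egr1 0.20 (SE 0.0641, adjusted p = 0.539, edgeR). With sex and the pair of prefixes as terms in place of the block, 0 members passed, against 0.109% of all genes. Of the 33 members with an adjusted p in the authors' deposited table, 0 were under 0.05, against 0.191% of all genes there, and the smallest was 0.0982, for Ier5.

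The direction was not shared by all prefixes. Heterozygous animals had the higher level for 28 of 33 members in prefix 046, 21 in 047, 30 in 048, 28 in 119 and 28 in 141, but for 9 in prefix 139. Over all genes this share lay between 49.8% (prefix 141) and 50.8% (prefix 139). The median difference of the members in log2 CPM ran from 0.14 in prefix 047 to 0.38 in prefix 048, and was -0.13 in prefix 139. Among the factors, 13 of 14 were higher in heterozygous animals in prefixes 046 and 048, and 1 of 14 was in prefix 139. Ier5 and Nrn1 were the 2 members higher in all 6 prefixes, against 2.38% of all genes. Each prefix other than 141 compares 1 animal with 1, so a single prefix has no replicate check. Members are read from the same libraries, so the counts within a prefix are not independent observations.

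**Figure D4:**
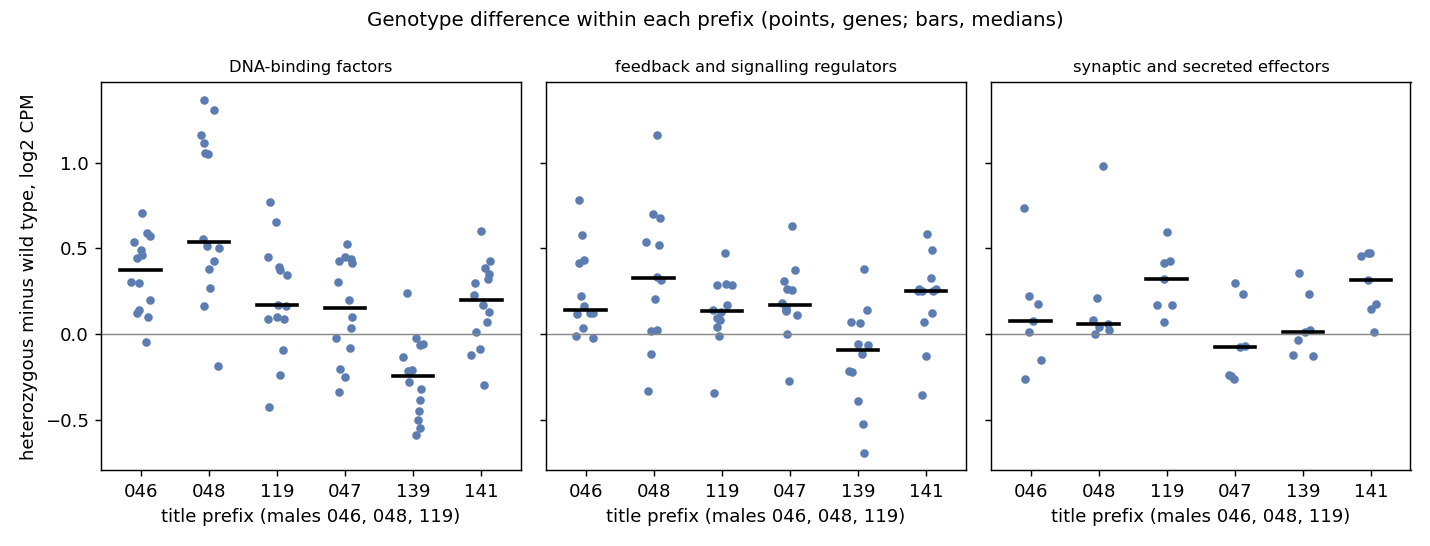
Difference in log2 CPM, heterozygous minus wild type, within each title prefix, with a point for each member, a panel for each role and bars at the medians. In prefix 139, 1 of 14 DNA-binding factors lies above 0, against 9 to 13 of 14 in the other prefixes.

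Leaving out the 2 animals of prefix 139, an alternative chosen after seeing which prefix went the other way, brought 9 members past the threshold with the block, against 0.861% of all genes and 0.543% in that direction. They were Egr1, Egr2, Egr3, Egr4, Fos, Junb, Dusp1, Dusp6 and Ier5, with log2 fold changes from 0.24 (Dusp6, adjusted p = 0.0437) to 0.55 (Fos, adjusted p = 0.0228, edgeR). Because prefix 139 was singled out by its values, this count describes the weight of those 2 animals and is no support for the direction.

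The genotype difference was then compared between the sexes and between the sets of prefixes. For genotype by sex, 0 of 33 members passed the threshold, against 0% of all genes (edgeR). At an unadjusted p under 0.05 there were 0 members and 144 genes, and DESeq2 placed 0 members past the threshold. Without prefixes 119 and 141, 0 members and 0 genes passed, and 7 members and 582 genes were under an unadjusted p of 0.05. The pair of prefixes 119 and 141 came from an earlier view of these data. Tests of genotype by that pair are therefore given as a description and are no independent evidence. For genotype by this pair, 0 members passed, again against 0% of all genes. Here 3 of 33 members were under an unadjusted p of 0.05, a smaller share than the 14.7% of all genes. The members thus did not stand out, and the values that follow are a description. These 3 were the effectors Ptgs2, Vgf and Plk2. Their heterozygous minus wild type difference was more positive in prefixes 119 and 141, by 0.44 (SE 0.188), 0.50 (SE 0.218) and 0.25 (SE 0.119) in log2. In prefix 141, Vgf had a mean of 154 CPM in wild type and 214 CPM in heterozygous animals, and in prefix 119 it had 220 and 294 CPM. The difference in log2 CPM was 0.47 and 0.41 in these prefixes, against 0.01 in 046, 0.06 in 048, 0.02 in 139 and -0.26 in 047. With the prefix block, Vgf alone of the 33 members passed the test of this difference (0.49, adjusted p = 0.00148, edgeR). That is a smaller share than the 5.55% of all genes. With no filter on low counts 4 members passed this test, against 1.94% of genes. Vgf was at 0.51, while Arc (-0.51), Sik1 (-0.52) and Nr4a1 (-0.43) went the opposite way. In that fit the SE was 0.107 for Vgf, 0.107 for Arc, 0.133 for Sik1 and 0.112 for Nr4a1. With the filter it was 0.218, 0.573, 0.495 and 0.545 in that order, at nearly the same estimates. These 4 calls thus came with a smaller SE and not with a larger difference. Without wild type replicate 5, of prefix 119, Plk2 alone of the members passed the test of this difference, again a smaller share than the 6.13% of all genes. DESeq2 placed 0 members past the threshold, against 1.81%. Astrocyte markers moved with both terms: 0 of 7 lay above 0 by genotype, and 0 of 7 lay above 0 for genotype by the pair (median -0.29). Heterozygous minus wild type was thus more negative in prefixes 119 and 141 for all 7 astrocyte markers. Their part in these results was not tested.

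Fixed pairs of a factor and a regulator or effector were followed across the 14 animals (Pearson's r and Spearman's rho of log2 CPM, two-sided permutation tests, adjusted over 4 pairs and both measures). Egr1 and Dusp6 had r = 0.932 (adjusted permutation p = 2.67e-05) and rho = 0.916 (adjusted permutation p = 4e-05), and r stayed at 0.927 without the 2 animals farthest from the Egr1 median. Within prefixes 119 and 141 r was 0.892 (exact permutation p = 0.0222, n = 6), and within the others 0.836 (exact permutation p = 0.0198, n = 8). Fos and Arc had r = 0.836 (adjusted permutation p = 0.00146) and rho = 0.613 (adjusted permutation p = 0.0302). Without the 2 animals farthest from the Fos median, both of prefix 119, r over the other 12 was 0.37, so the pooled r rests on those animals. Within the 8 animals outside prefixes 119 and 141, r was 0.758 (exact permutation p = 0.0423, n = 8), and within prefixes 119 and 141 it was 0.958 (exact permutation p = 0.0194, n = 6). The latter set holds the same 2 animals of prefix 119, which lay below prefix 141 for both genes. The rho was 0.657 in that set and 0.786 in the other.

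Junb levels of the sets of prefixes did not overlap, so Junb and Dusp1 were read only within each set. There r was 0.962 (exact permutation p = 0.00833, n = 6) and 0.892 (exact permutation p = 0.00347, n = 8). In the set of 6, both animals of prefix 119 lay below all animals of prefix 141 for both genes. The r of that set thus includes the gap between those prefixes. The rho was 0.771 in that set and 0.81 in the other. Npas4 and Nptx2 showed no relation past the threshold, with r = 0.241 (adjusted permutation p = 0.467) and rho = 0.169 (adjusted permutation p = 0.562). Within the sets their r was -0.681 (exact permutation p = 0.136, n = 6) and -0.373 (exact permutation p = 0.381, n = 8). These tests treat animals as exchangeable, although animals of a prefix resemble each other, so the p-values may be too small. With the mean of each prefix removed, an alternative chosen after seeing the data and given with no test, r over the 14 animals was 0.964 for Egr1 with Dusp6, 0.848 for Junb with Dusp1, 0.810 for Fos with Arc and -0.0343 for Npas4 with Nptx2. With the genotype means removed as well, r was 0.952, 0.843, 0.685 and -0.311 in that order. A prefix of 2 animals then gives mirrored points, so the 14 points are not separate values.

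**Figure D5:**
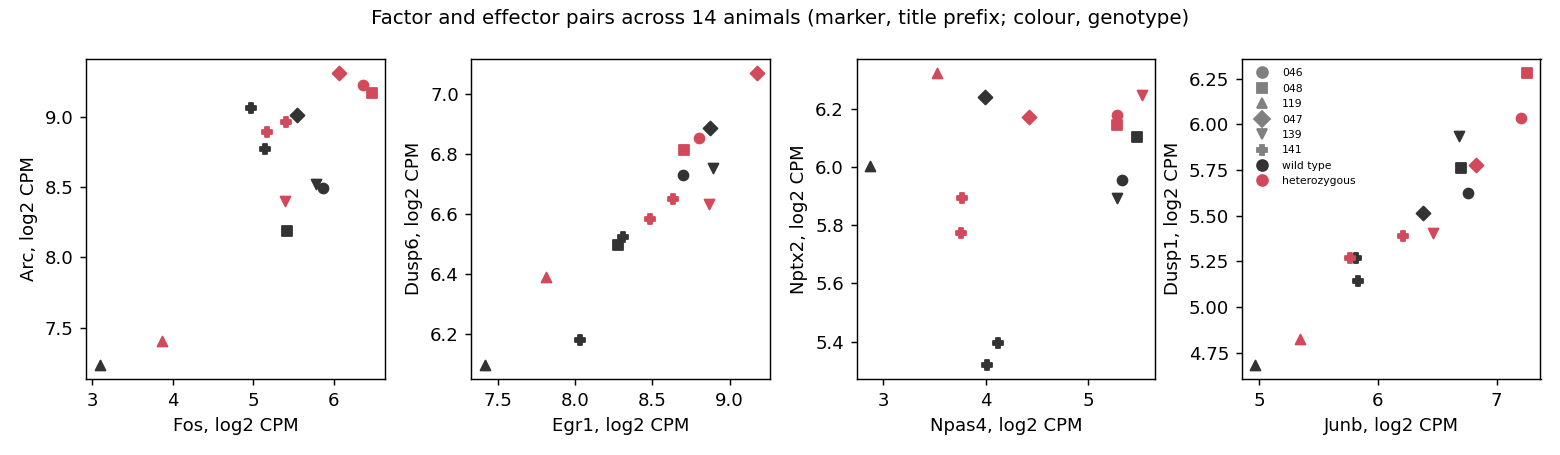
Log2 CPM of the second gene against the first for the 4 fixed pairs, with a point for each of the 14 animals, with the title prefix as marker shape and genotype as colour. Egr1 with Dusp6 and Junb with Dusp1 lie along a line in both sets. For Fos with Arc the 2 animals of prefix 119 lie apart at the low end. The same 2 animals are also the lowest for Junb and for Dusp1.

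Kinases, channels and constitutive factors that act upstream of these genes lay on both sides of 0 by genotype. Of 33 upstream regulators tested, 0 passed in either direction with or without the prefix block, and 19 lay above 0, with a median log2 fold change of 0.0071. Over all genes, 0.405% passed with the block and 0.0145% with sex as a term, and 50.9% lay above 0. Those with the smallest p on each side were the kinase genes Mapk3 at -0.18 (SE 0.0820) and Rps6ka1 at -0.18 (SE 0.0894), and the calcium channel gene Cacna1d at 0.12 (SE 0.0623) and the kinase gene Rps6ka3 at 0.14 (SE 0.0896), all at an adjusted p of 0.978 (edgeR). The prefix test was passed by 15 of the 33, against 32.2% of all genes.

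Other genes induced by activity lay mostly above 0. Of 29 tested out of 31 listed, 25 did so by genotype, against 50.9% of all genes, with a median of 0.08. With sex as a term 0 passed, against 0.0145% of all genes. With the prefix block 1 passed, against 0.405% of all genes and 0.261% in that direction. This was Klf10, a Krüppel-like repressor, at 0.48 (SE 0.0741, adjusted p = 0.00885, edgeR). It had a lowest, median and highest level of 30.0, 50.4 and 78.7 CPM in wild type and of 45.5, 64.8 and 93.4 CPM in heterozygous animals, with overlapping ranges. Errfi1, an inhibitor of EGF receptor signalling, had 0.18 (SE 0.0887), while Klf6 and the adhesion gene Amigo3 had -0.12 (SE 0.0815) and -0.20 (SE 0.228), none past the threshold. Maff and Fosl1 were not tested. Of the 29 genes, 17 passed the prefix test, against 32.2% of all genes.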

How the data were processed

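RNA from the cortex of 14 animals was sequenced with a directional kit as single-end reads, per the labels' protocols, although GEO's molecule field reads genomic DNA. The authors deposited 1 table with whole-number read counts per gene and animal, with no normalization, and beside them 4 columns that compare the genotypes: log2 fold change, a score (the test statistic), p-value and adjusted p, per the file headers. Trim Galore, Bowtie, STAR, bedtools and the mm9 build are named in the submitters' processing notes, with no versions. The counting tool and strand setting were not given in the sources used here. Reads of overlapping genes could therefore be mixed.

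Counts were tested with edgeR 4.0.16 (R 4.3.3, limma 3.58.1, DESeq2 1.42.0 as an alternative): filterByExpr by genotype, TMM factors, robust quasi-likelihood F tests, Benjamini-Hochberg over all genes tested, threshold 0.05. Genotype was fitted with sex as a term. The prefix was tested beyond sex with 4 degrees of freedom. CPM used TMM-scaled library sizes, and log2 CPM a prior count of 2. The SE was computed from the fold change and F. Exon lengths came from GENCODE M21, of another build. Permutation tests used 100000 resamples, or were exact within sets. The scripts were tested on simulated data. All 14 libraries differed by more than sampling noise, with a smallest chi-square of 2.67 per degree of freedom between animals of a genotype. Each sample was taken as 1 animal.

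The members, role classes, upstream regulators, other activity-induced genes and marker lists (excitatory neurons, interneurons, astrocytes, oligodendrocytes, microglia, endothelial cells, striatal neurons, choroid plexus and erythrocytes) were chosen with earlier results of these data known. Of the lists not described above, by genotype 5 of 7 oligodendrocyte, 1 of 6 endothelial, 1 of 5 striatal, 0 of 2 choroid plexus and 1 of 3 erythrocyte markers lay above 0. Genes were named if they passed in the fit with sex or with the block, had the 3 smallest genotype p or 2 smallest prefix p of their class, belonged to a fixed pair, had an estimate opposite in sign to the members' median, or missed the filter. In the other lists they were those that passed and the 2 with the smallest p on each side. Others are said to be chosen after their values were seen. Animals of both genotypes that share a prefix deviated together from their genotype means, with r across genes of 0.200 to 0.517 in all 9 such pairs. Animals of a prefix also share a sex. Alternatives were DESeq2, RLE factors, no filter, no covariate, another prior count, the prefix as a block, sex with the prefix pair, and each animal left out.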

Additional observations from a re-analysis of the deposited data

Results flagged for a closer look

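Of 66 groups of 7 animals (33 members by genotype), 3 held 1 animal that lay far from the others, with a gap to its nearest neighbour above 0.568 of the range of its group. Chance flags about 1 in 20 groups. In wild type, Dusp4, a nuclear MAP kinase phosphatase, reached 27.2 CPM in the animal of prefix 047, and the next animal had 15.2 CPM. Fosb, whose splice form accumulates with repeated stimulation, reached 44.3 CPM in the same animal, with the next at 25.6 CPM. Gadd45g, a stress and DNA repair regulator, reached 11.3 CPM in the wild type animal of prefix 048, with the next at 7.05 CPM. These genes were named for this reason, after their values were seen.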

How the results depend on the processing

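For genotype, 2 genes passed with sex as a term, 11 with DESeq2, 56 with the prefix as a replicate block, 15 with sex and the prefix pair, and 0 without prefixes 119 and 141 or without prefix 139, both chosen after seeing the data. Leaving out 1 animal gave 1 to 4. Members went from 0 to 2 with the replicate block, which brought in Egr1 and Ier5, and to 9 (among 119 genes) with the block and without prefix 139. With the block and without prefixes 119 and 141 there were 2 genes and 0 members. For genotype by prefix pair, DESeq2 gave 250 genes, no filter on low counts 381 and the replicate block 767. Leaving out 1 animal gave 0 to 850, the highest without wild type replicate 5, of prefix 119. Members there were 4 with no filter, 1 with the replicate block and 0 to 1 with 1 animal left out. Without prefixes 119 and 141 the prefix test passed 33 genes and 1 member. For Fos with Arc, r was 0.717 to 0.880 with 1 animal left out, the lowest without wild type replicate 5. With prefix means removed, r was -0.034 for Npas4 with Nptx2 and 0.848 for Junb with Dusp1.

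Of 792 member values for genotype under alternatives, 740 kept their direction and side of the threshold, 11 passed it and 41 turned sign. Ptgs2 was 0.014 with the replicate block, 0.0058 with the prefix pair and 0.012 without prefix 139 (0.038 with the block too), where Npas4 was -0.033. Without prefixes 119 and 141, Jun was 0.082, Jund 0.022, Dusp4 -0.069, Rgs2 -0.012, Vgf -0.044 and Inhba -0.091. With the replicate block as well they were 0.074, 0.023, -0.050, -0.011, -0.042 and -0.082. With 1 animal left out, Jun ran from -0.14 to 0.020, Jund from -0.073 to 0.029, Btg2 from -0.33 to 0.015, Npas4 from -0.26 to 0.24 and Ptgs2 from -0.060 to 0.11. The cause was not tested. With 7 animals a genotype, the 95% interval of Fos ran from -0.45 to 1.27.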
